A study of Mus musculus with 5 samples.

Results

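The retinoid visual cycle genes examined here are Rpe65, Lrat, Rlbp1, Rdh5, Rdh10, Rgr, Stra6, Rbp4 and Dhrs3. They were chosen by name from the 23141 named loci of the deposited table, and all 9 were found, each at 1 locus. Rdh5 shares its locus with Bloc1s1, so that locus is called Rdh5/Bloc1s1. Their levels were compared between 2 libraries from the uvea of adult mice of wild-type genotype and 3 from eye tumors of adult mice of genotype AAV5-Cre;Lats1/2 fl/fl. In the tumor mice, loxP sites flank both copies of Lats1 and Lats2, and an adeno-associated virus of serotype 5 brought the Cre recombinase that removes the flanked DNA. The kinases these genes encode restrain the growth coactivators YAP and TAZ in the Hippo pathway. The series title calls the tumors uveal melanoma. The promoter driving Cre, the cells that took up the virus, the number of mice per library and whether the wild-type eyes were injected are not stated in the labels. Nothing says that the libraries came from separate animals, so a p-value speaks of the spread among these libraries alone, which may be technical.

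The visual cycle rebuilds the light-sensitive chromophore of the photoreceptors after light has changed its shape. Retinol reaches the eye in blood on a carrier protein, enters the retinal pigment epithelium (RPE, the pigmented cell layer behind the retina), is stored as an ester, and is then turned into the cis form and oxidized to the aldehyde that opsins bind. Most of these steps run in the RPE, and some also in Muller glia, the supporting cells of the retina. Uvea is iris, ciliary body and choroid, and the RPE lies on the choroid.

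All 9 loci entered the test of tumor against wild type. Of these, 7 fell, 0 rose, and Rbp4 and Dhrs3 did not pass (edgeR quasi-likelihood test, adjusted p under 0.05). Among all 15241 tested loci 15.4% fell and 18.7% rose, 34.1% in all. The median log2 fold change of the 9 was −7.20, against 0.05 over all tested loci. The 7 that fell all had a log2 fold change of −4 or below, which 2.62% of tested loci reached with a call. In each of these 7 every tumor library lay below both wild-type libraries, as at 32.7% of tested loci (every tumor library lay above both wild-type libraries at 36.4%). With either wild-type library left out, edgeR called 0 loci and none of the 7, with unadjusted p under 0.05 at 4085 and 3996 loci, while DESeq2 called all 7 in both sets. Fewer cells of a type and less RNA per cell cannot be told apart in such bulk samples.

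The libraries held 12687703 to 14368272 estimated fragments. Libraries of a group differed by more than sampling noise, and the tumors far more than the wild-type pair (median SD of log2 CPM, fragment counts scaled to a fixed library total, 0.343 against 0.0882). Tumor library 2 stood apart from the other tumors in eye genes: the median log2 CPM of the lens list was 1.68 there and −2.15 and −2.12 in tumor libraries 1 and 3. Tumor library 1 stood apart in skeletal muscle genes, with a median of 10.08 against 5.61 and 5.32 in tumor libraries 2 and 3.

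The 9 loci together supplied 1.61% (95% exact binomial interval 1.60% to 1.62%) and 1.69% (1.68% to 1.70%) of all named fragments in the wild-type libraries. In tumor libraries 1, 2 and 3 they supplied 0.0303% (0.0294% to 0.0313%), 0.0459% (0.0447% to 0.0471%) and 0.0277% (0.0269% to 0.0286%). The intervals cover counting error only. The makeup of that share was different too. Rgr gave 33.6% and 34.5% of the members' fragments in wild type and 3.79%, 3.87% and 1.22% in the tumors, whereas Dhrs3 gave 1.22% and 1.09% in wild type and 50.2%, 41.4% and 60.9% in the tumors.

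**Figure D1:**
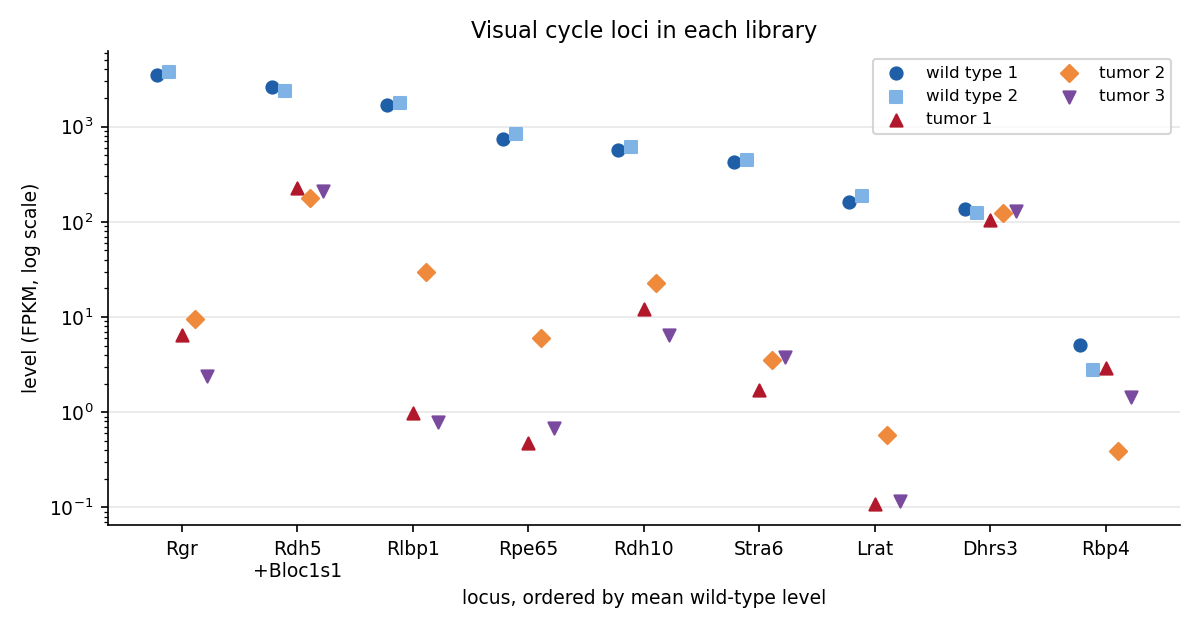
Level of each visual cycle locus in each library, in FPKM on a log axis, with loci ordered by their mean in wild type. Each point is 1 library. The wild-type points lie close together, the tumor points of 7 loci lie far below them, those of Dhrs3 lie among them, and tumor library 2 is highest of the tumors for Rlbp1 and Rpe65.

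Promoters of the members were searched for letters bound by factors of the RPE, of retinoic acid and of the Hippo pathway. RefSeq (GRCm38.p6) promoter sequences were matched for 8 members at 14 start sites, and the 250 bases before each start were read on both strands. Stretches of Rpe65, Rgr and Rlbp1 are shown because they hold matches for factors whose genes are described further on. Matches are in capitals, 5′ to 3′ on the strand of the gene.
Rpe65, chr3:159599125-159599154, plus strand: ggctcctccaataaGGATTAgattgcatac
Rgr, chr14:37049115-37049194, minus strand: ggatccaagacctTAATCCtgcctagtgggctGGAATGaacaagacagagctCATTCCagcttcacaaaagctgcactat
Rlbp1, chr7:79387098-79387177, minus strand: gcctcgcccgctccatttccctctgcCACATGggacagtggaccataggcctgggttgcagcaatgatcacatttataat

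The letters TAATCC, which OTX2 and the related photoreceptor factor CRX are known to bind, or GGATTA on the other strand, were found in Rpe65 (−42 to −37 from the start) and in Rgr (−167 to −162). They occur in 6.25% of all 32851 promoter windows of 250 bases. The RefSeq start of Rpe65 lies downstream of the start of its deposited locus (159599070). Its match at −42 to −37 therefore lies inside that locus. The E-box letters CATGTG, or CACATG on the other strand, that MITF is known to bind were found in Rlbp1 (−124 to −119) and Rpe65 (−239 to −234), and in 12.3% of all windows. The E-box CACGTG, which reads the same on both strands and is in 6.02% of windows, was in no member window. The letters GGAATG or CATTCC, bound by the TEAD partners of YAP, were found at 2 places in Rgr and at 1 in Lrat, and in 12.6% of windows. The letters AGGTCA or TGACCT that retinoic acid receptors are known to bind, in 14.02% of windows, were in no member window. None of the matches overlapped another. They describe letters and not binding.

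Uptake of retinol was represented by Rbp4, the blood carrier of retinol, and Stra6, the membrane receptor that takes retinol from it. Stra6 (chromosome 9, 58129088 to 58159295, mm10, plus strand) stood at 424 and 444 FPKM in the wild-type libraries, against 1.70, 3.50 and 3.77 FPKM in tumor libraries 1, 2 and 3. FPKM is the fragment count scaled for transcript length and depth, so levels of different genes can be compared in it. All tumors lay more than 2 orders of magnitude below both wild-type libraries, at 0.392%, 0.806% and 0.869% of the wild-type mean. The log2 fold change of Stra6 was −7.29 (SE 0.47, 95% interval −8.50 to −6.07, edgeR adjusted p = 0.00342). Of the 6 loci with the largest falls among the members, Stra6 was the most even between tumors, with the highest tumor 2.22 times the lowest.

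Rbp4 (chromosome 19, 38116620 to 38125321, minus strand) was low throughout. It stood at 5.04 and 2.77 FPKM in the wild-type libraries, against 2.91, 0.394 and 1.45 FPKM in tumor libraries 1, 2 and 3, from 50 and 25 and from 30, 4 and 14 fragments. The groups overlapped, since tumor library 1 lay above wild-type library 2. Its log2 fold change of −1.26 did not pass (SE 0.84, 95% interval −3.43 to 0.91, edgeR adjusted p = 0.288), an interval that holds both no change and a large fall. At 4 fragments (exact Poisson interval 1.09 to 10.2, counting error only) its level in tumor library 2 is poorly set.

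Rbp4 is also made by liver and fat cells, so markers of both were read. Of 7 hepatocyte markers 1 could be tested, Cyp2e1, which fell (log2 fold change −2.13, edgeR adjusted p = 0.0271), and the other 6 were at 1.66 FPKM or below in every library. Of 8 adipocyte markers 4 could be tested, and 0 rose and 0 fell. Like Rbp4, the leading adipocyte genes were lowest of the tumors in library 2. Fabp4, a fatty acid carrier gene, had 138, 13.6 and 43.6 FPKM in tumor libraries 1, 2 and 3, and Cfd, the adipsin gene, had 3.63, 0 and 4.81 FPKM. Without tumor library 2, and with DESeq2, 1 of the 4 rose, and without tumor library 3 there was 1 fall. The summed level of the list was 25.4 to 30.03 FPKM in wild type and 19.5 to 151 FPKM in the tumors, and its part in the Rbp4 values was not tested.

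Lrat encodes the acyltransferase that makes retinyl esters, and Rpe65 the isomerase that turns these esters into the cis form. Lrat (chromosome 3, 82876705 to 82943638, minus strand) stood at 163 and 188 FPKM in the wild-type libraries, against 0.109, 0.581 and 0.116 FPKM in the tumors. With a log2 fold change of −9.28 (SE 0.97, 95% interval −11.77 to −6.78, edgeR adjusted p = 0.00669) it had the largest fall of the 9 in this fit and ranked 13 among all tested loci. Without tumor library 2 Rlbp1 fell further, and on log2(FPKM + 1) Lrat, at −7.14 with limma, came after Rgr (−9.12), Rlbp1 (−8.50) and Rpe65 (−8.25). Its tumor levels rest on 8, 44 and 8 fragments, with exact Poisson intervals of 3.45 to 15.8, 32.0 to 59.1 and 3.45 to 15.8.

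Rpe65 (chromosome 3, 159599070 to 159625451, plus strand) stood at 745 and 829 FPKM in the wild-type libraries, against 0.472, 5.97 and 0.686 FPKM in the tumors. Tumor library 2 thus held 10.3 times the mean of the other tumors, and still only 0.759% of the wild-type mean. The counts behind the tumor levels were 11, 138 and 15 fragments, and the Poisson interval of tumor library 2 (116 to 163) did not touch those of the others (5.49 to 19.7 and 8.40 to 24.7). The log2 fold change was −8.31 (SE 1.37, 95% interval −11.83 to −4.79, edgeR adjusted p = 0.0149), and −10.39 without tumor library 2. For Lrat the value without that library was −10.60.

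Rlbp1, Rgr and the Rdh5/Bloc1s1 locus stand at the last steps in the RPE. Rlbp1 encodes the binding protein that carries cis-retinoids and is made in RPE and Muller glia. Rlbp1 (chromosome 7, 79369192 to 79387027, minus strand) stood at 1699 and 1756 FPKM in the wild-type libraries, against 0.980, 29.9 and 0.793 FPKM in the tumors. It was the member on which the tumors differed most, since tumor library 2 held 33.7 times the mean of the other tumors. Counting error is small beside this: the fragments were 23, 725 and 17, with Poisson intervals of 14.6 to 34.5, 673 to 780 and 9.90 to 27.2.

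The log2 fold change of Rlbp1 was −7.20 (SE 1.96, 95% interval −12.23 to −2.16, edgeR adjusted p = 0.0453), the call closest to the threshold among the members. Without tumor library 2 it was −10.87 (edgeR adjusted p = 0.00291). The call ended without tumor library 1 (edgeR adjusted p = 0.0793), without tumor library 3 (edgeR adjusted p = 0.0591) and with library size alone as the scaling (edgeR adjusted p = 0.0507), each with the same direction.

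Rgr encodes a non-visual opsin of RPE and Muller glia that binds retinal. Rgr (chromosome 14, 37034568 to 37049082, minus strand) was the highest member in wild type, at 3485 and 3718 FPKM, and ranked 11 among the 23141 named loci there. In the tumors it was at 6.50, 9.52 and 2.42 FPKM, or 0.180%, 0.264% and 0.0673% of the wild-type mean. Its log2 fold change was −9.09 (SE 0.79, 95% interval −11.13 to −7.04, edgeR adjusted p = 0.0052). Unlike Rlbp1, whose tumor levels spread 37.6-fold, Rgr spread 3.93-fold between the highest and the lowest tumor.

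Rdh5 encodes the dehydrogenase that oxidizes cis-retinol, and Bloc1s1 a subunit of a complex that sorts cargo to lysosomes and pigment granules. Their shared locus (chromosome 10, 128913252 to 128923632, minus strand) stood at 2602 and 2365 FPKM in the wild-type libraries, against 228, 176 and 213 FPKM in the tumors. It was the highest of the 9 loci in the tumors, and the tumors were even. On fragments its log2 fold change was −4.95 (SE 0.21, 95% interval −5.50 to −4.41, edgeR adjusted p = 0.00295), and on log2(FPKM + 1) it was −3.59 with limma.

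The gap between those values lies in the transcript length that FPKM divides by. FPKM per fragment, scaled to the median locus of each library, was 2.65 times as high in the tumors as in wild type at this locus. Of 11855 loci with at least 20 fragments in every library, 0.101% had a ratio of 2 or more, and of the 260 with several names 3.85% did. For the 4 other members with enough fragments the ratio was 0.986 to 1.12. FPKM per fragment is higher where fragments are assigned to shorter transcripts. In the GENCODE M21 annotation, Bloc1s1 transcripts have 475, 550 and 613 bases and the Rdh5 transcript 1258 bases. The table does not split the locus, so no level of Rdh5 alone is given.

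Rdh10 and Dhrs3 encode enzymes that work in opposite directions on retinol and retinal, also outside the eye. Rdh10 oxidizes retinol, a step on the way to retinoic acid as well as in the visual cycle. Rdh10 (chromosome 1, 16104606 to 16133736, plus strand) stood at 572 and 608 FPKM in the wild-type libraries, against 12.2, 22.8 and 6.43 FPKM in the tumors. It kept 2.06%, 3.86% and 1.09% of the wild-type mean in tumor libraries 1, 2 and 3. The log2 fold change was −5.40 (SE 0.60, 95% interval −6.95 to −3.86, edgeR adjusted p = 0.00723), and −6.02 without tumor library 2.

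Dhrs3 encodes the enzyme that reduces retinal back to retinol, and its gene is known to respond to retinoic acid. Dhrs3 (chromosome 4, 144892544 to 144927838, plus strand) stood at 137 and 123 FPKM in the wild-type libraries, against 105, 124 and 129 FPKM in the tumors. The groups overlapped, and the tumors held 81.0%, 95.7% and 99.5% of the wild-type mean. Its log2 fold change was −0.18 (SE 0.17, 95% interval −0.63 to 0.27) and did not pass (edgeR adjusted p = 0.454). Over 17 other settings and library sets the value stayed between −0.28 and −0.08. Dhrs3 ranked 720 among named loci by FPKM in wild type and 781 in the tumors.

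**Figure D2:**
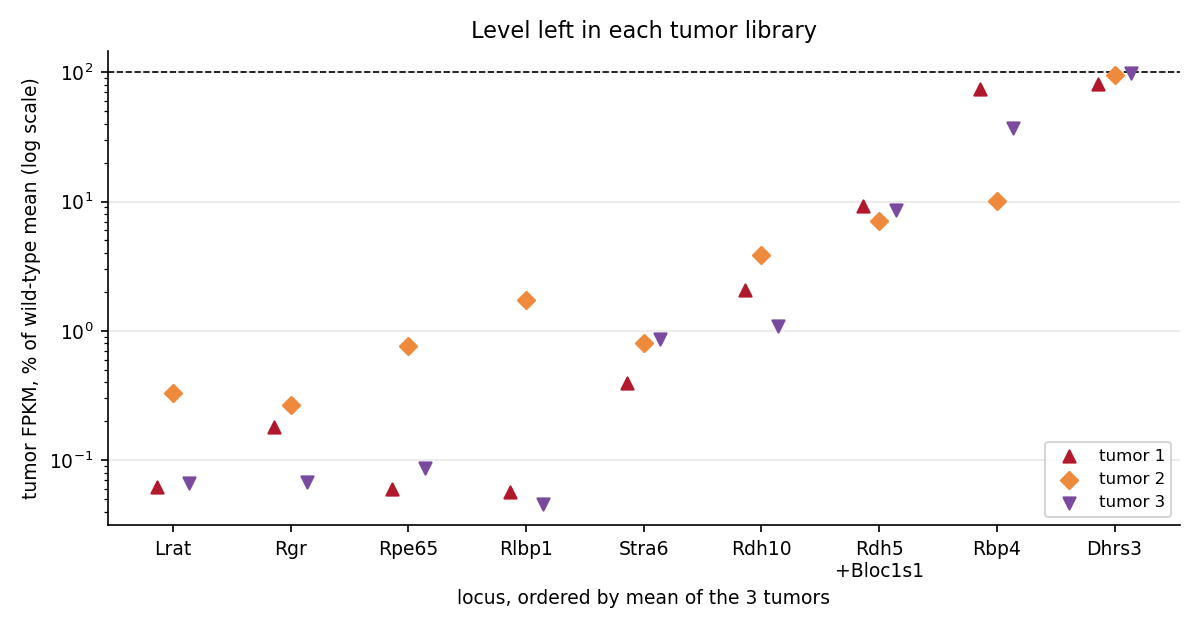
FPKM of each visual cycle locus in each of the 3 tumor libraries as a percent of the wild-type mean (dashed line at 100%), on a log axis. Lrat, Rgr, Rpe65, Rlbp1 and Stra6 kept under 1% on average, Rdh10 2.34%, the Rdh5/Bloc1s1 locus 8.28%, Rbp4 40.6% and Dhrs3 92.1%.

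The order of the levels was therefore different in the 2 groups. In wild type the mean level fell from Rgr (3602 ± 165 FPKM, SD, n = 2) over the Rdh5/Bloc1s1 locus (2483 ± 168), Rlbp1 (1727 ± 40.6), Rpe65 (787 ± 58.9), Rdh10 (590 ± 25.8), Stra6 (434 ± 13.7), Lrat (176 ± 17.8) and Dhrs3 (130 ± 9.95) to Rbp4 (3.91 ± 1.60). No neighbours in that order overlapped in their wild-type libraries. In the tumors the Rdh5/Bloc1s1 locus (206 ± 26.5 FPKM, SD, n = 3) and Dhrs3 (120 ± 12.7) came first, in that order by FPKM only. They were followed by Rdh10 (13.8 ± 8.29), Rlbp1 (10.5 ± 16.7), Rgr (6.15 ± 3.56), Stra6 (2.99 ± 1.13), Rpe65 (2.38 ± 3.11), Rbp4 (1.59 ± 1.27) and Lrat (0.269 ± 0.270). Apart from the step from the Rdh5/Bloc1s1 locus to Dhrs3 and that from Dhrs3 to Rdh10, each pair of neighbours overlapped between tumors.

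The labelled tissue was checked against markers of the RPE other than the 9 genes. In wild type most were high. Ttr, the retinol carrier's partner protein gene, was at 7586 and 7255 FPKM, and Slc16a8, a lactate transporter gene of the RPE, was at 825 and 777 FPKM. Best1, a chloride channel gene of the RPE, was however at 0.436 and 0.898 FPKM. Of the 12 markers 10 fell in the tumors and 0 rose, with a median log2 fold change of −6.72, and among all tested loci 15.4% fell. In edgeR the marker falls numbered 7 without tumor library 1 and 9 without tumor library 2 or 3. They numbered 9 with library size alone, 8 with no filter on low counts, and 10 with DESeq2 over all libraries. Serpinf1, a secreted factor gene, stood at 249 and 264 FPKM in the wild-type libraries, against 326, 320 and 254 FPKM in the tumors and did not pass (edgeR adjusted p = 0.323).

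To place the members against these markers, the median log2 CPM of the 12 was subtracted from each member in the same library. Otx2, Rrh and Ttr of that list also stand in other lists below. Tumor minus wild type, this relative level was −2.24 for Rpe65, −2.67 for Lrat, −2.44 for Rgr and −2.18 for Rlbp1, all lower in the tumors. It was 1.29 for Rdh10, 1.92 for the Rdh5/Bloc1s1 locus, 5.46 for Rbp4 and 6.68 for Dhrs3, all higher in the tumors. These values are set against the marker median alone, and the markers had log2 fold changes from −9.51 (Ttr) to 0.35 (Best1). Ttr fell further than Rpe65, Lrat, Rgr and Rlbp1. Slc16a8 (−8.55) fell further than Rpe65 (−8.31) and Rlbp1 (−7.20), while Serpinf1 (0.28) did not fall. Dhrs3 lay above the marker median by 6.61, 4.03 and 7.001 in the tumors and below it in wild type (−0.69 and −0.91). The exact permutation test of 2 against 3 libraries cannot go below p = 0.1 (two-sided), a value reached by Rpe65, Lrat and Dhrs3. For the other 6 members it gave p = 0.2 to 0.7 (exact). For Stra6 the value of −0.48 turned to 0.28 without tumor library 2 and was −1.16 without tumor library 3. The Rdh5/Bloc1s1 locus stood at 2.81 in tumor library 2, between the wild-type values of 2.77 and 2.99, and at 5.82 and 5.76 in tumor libraries 1 and 3, so its difference was 2.91 without tumor library 2. That of Rdh10 was 0.85 without tumor library 1.

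Tumor library 2 held more of the eye lists as a whole. Its median log2 CPM exceeded the mean of the other tumors by 1.95 for the 9 members, 2.86 for the other RPE markers, 1.46 for 8 pigment cell markers, 0.87 for 11 rod markers, 2.16 for 9 Muller glia markers and 3.81 for 9 lens markers. It held less of the macrophage list by 0.97 and of the fibroblast list by 0.30, and the endothelial list was level with the other tumors (−0.004). Among Muller glia genes, Clu had 728 FPKM in tumor library 2 but 112 and 91.7 FPKM in the other tumors, and Glul, the glutamine synthetase gene, had 205 FPKM against 117 and 98.5 FPKM. Not all genes of that list were higher there: Apoe, a lipid carrier gene and the highest of the list, had 6080.0 FPKM in tumor library 2 against 5809 and 9866 FPKM, and Vim, the vimentin gene, had 2061 FPKM against 1518 and 1836 FPKM. The part of these cell types in the Rlbp1 and Rpe65 values of that library was not tested.

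**Figure D3:**
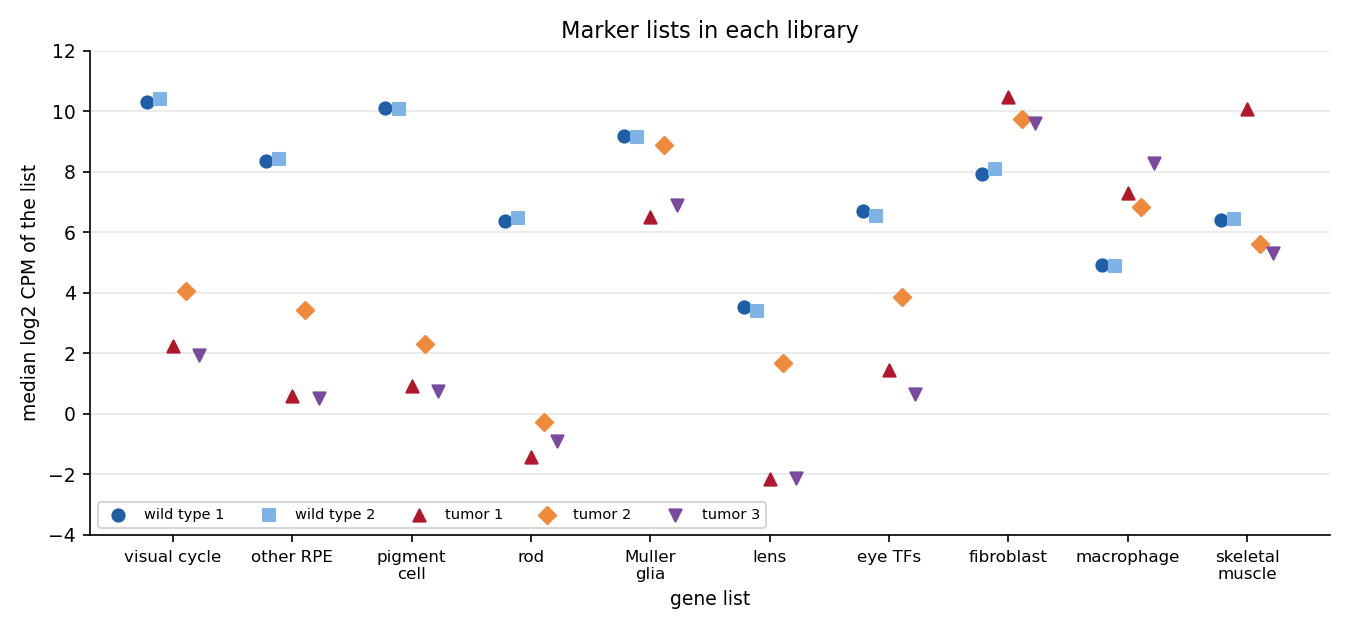
Median log2 CPM of the visual cycle loci and of 9 other gene lists in each library (RPE: retinal pigment epithelium; TFs: transcription factors). Each point is 1 library. Tumor library 2 (diamonds) lies above the other tumors in the eye lists, and all tumors lie above wild type in the fibroblast and macrophage lists.

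The other marker lists were read by the same test, in which 18.7% of all tested loci rose and 15.4% fell. All 8 pigment cell markers and all 11 rod markers fell (medians −8.74 and −7.53). Of the Muller glia markers 2 fell and 2 rose (median −0.70), of the lens markers 2 fell and 0 rose (median −3.19), and without tumor library 2 these falls numbered 4 and 6. Without tumor library 1 or 3 there was 1 Muller glia fall. With DESeq2 over all libraries 4 lens markers fell, and with limma on log2(FPKM + 1) 5 did. Of 7 fibroblast markers 3 rose and 0 fell (median 2.11; 5 rose with library size alone, and 5 rose and 1 fell with DESeq2), of 8 macrophage markers 6 rose and 0 fell (median 3.53), of 8 skeletal muscle markers 0 passed (median 2.11; 3 fell without tumor library 1, and 2 rose with DESeq2), and of 7 endothelial markers 0 rose and 2 fell (median −0.86). The summed level of the fibroblast list was 1741 to 1936 FPKM in wild type and 2362 to 4299.7 FPKM in the tumors. The part of these cells in the Dhrs3 level was not tested.

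Of 32 other genes of retinoid handling 30 could be tested, of which 16 fell, 1 rose and 13 did not pass, with a median log2 fold change of −1.86. Ttr had the largest fall (−9.51, SE 1.11, edgeR adjusted p = 0.00799), and Rrh, which encodes the RPE opsin peropsin, went from 153 ± 0.752 (SD, n = 2) to 1.31 ± 1.77 FPKM (SD, n = 3; log2 fold change −6.82, edgeR adjusted p = 0.0161).

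Several genes of the photoreceptor side of the cycle were on the list. Abca4, the transporter that clears retinal from outer segments, stood at 112 and 123 FPKM in the wild-type libraries, against 0.458, 1.70 and 0.255 FPKM in the tumors (log2 fold change −7.14, edgeR adjusted p = 0.00985). Rdh12, a photoreceptor retinal reductase gene, fell by 3.56 (edgeR adjusted p = 0.00547). Rdh8, which encodes the reductase of the outer segments, stood at 2.75 and 3.22 FPKM in the wild-type libraries and had 0, 1 and 0 fragments in the tumors, so the size of its fall (edgeR adjusted p = 0.00941) is uncertain. Rbp3, the retinoid carrier gene of the space between retina and RPE, stood at 72.8 and 74.6 FPKM in the wild-type libraries, against 0.180, 4.34 and 0.162 FPKM in the tumors. With a log2 fold change of −5.51 it did not pass (edgeR adjusted p = 0.0541), and without tumor library 2 it passed at −8.72. Over all libraries it passed with DESeq2 (DESeq2 adjusted p = 0.000209) and with limma on log2(FPKM + 1) (limma adjusted p = 0.00742).

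The list also held further dehydrogenases and reductases. Rdh9 fell by 3.01 (edgeR adjusted p = 0.00808) and Rdh1 fell by 2.50 (edgeR adjusted p = 0.0405). Rdh1 was low, at 0.767 and 1.17 FPKM in wild type, and its call ended without tumor library 1 (edgeR adjusted p = 0.0701). Rdh11 fell by 2.01 (SE 0.14, edgeR adjusted p = 0.00359) from 51.9 ± 3.05 (SD, n = 2) to 11.7 ± 0.611 FPKM (SD, n = 3), and Retsat, a retinol saturase gene, fell by 2.19 (edgeR adjusted p = 0.00598). Rdh13, Rdh14 and Dhrs7 did not pass, with log2 fold changes of −0.59, −0.35 and −0.14. Rdh13 stood close to the threshold (edgeR adjusted p = 0.0549) and passed in 6 other settings, among them DESeq2 (DESeq2 adjusted p = 0.00802). The gene that rose was Dhrs9, which encodes a further retinol dehydrogenase. Dhrs9 stood at 0 and 0.0307 FPKM in the wild-type libraries, against 0.618, 0.518 and 0.717 FPKM in the tumors (edgeR adjusted p = 0.0173), a low level against the 120 FPKM of Dhrs3 there.

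Genes of retinoic acid synthesis, breakdown and response lay on both sides of 0. Of 14 such genes 13 could be tested, of which 3 rose, 1 fell and 9 did not pass (median log2 fold change 0.61). Among all tested loci 18.7% rose and 15.4% fell. Crabp2, a carrier of retinoic acid, rose by 1.93 (SE 0.25, edgeR adjusted p = 0.00936), the synthesis gene Aldh1a3 by 1.42 (edgeR adjusted p = 0.0153) and the receptor gene Rara by 0.95 (edgeR adjusted p = 0.0286). The receptor gene Rarb fell by 1.51 (edgeR adjusted p = 0.0455), and this fall was lost when tumor library 1 or 3 was left out (edgeR adjusted p = 0.106 and 0.06) or library size alone was used (edgeR adjusted p = 0.0711). Without tumor library 2 there were 3 falls. Cyp26b1, which breaks retinoic acid down, was at 2.62, 49.8 and 1.78 FPKM in the tumors against 7.60 and 7.79 FPKM in wild type and did not pass. Its log2 fold change of 1.28 (edgeR adjusted p = 0.556) turned to −1.83 without tumor library 2, where it passed (edgeR adjusted p = 0.014), and was −0.12 on log2(FPKM + 1) with limma.

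**Figure D4:**
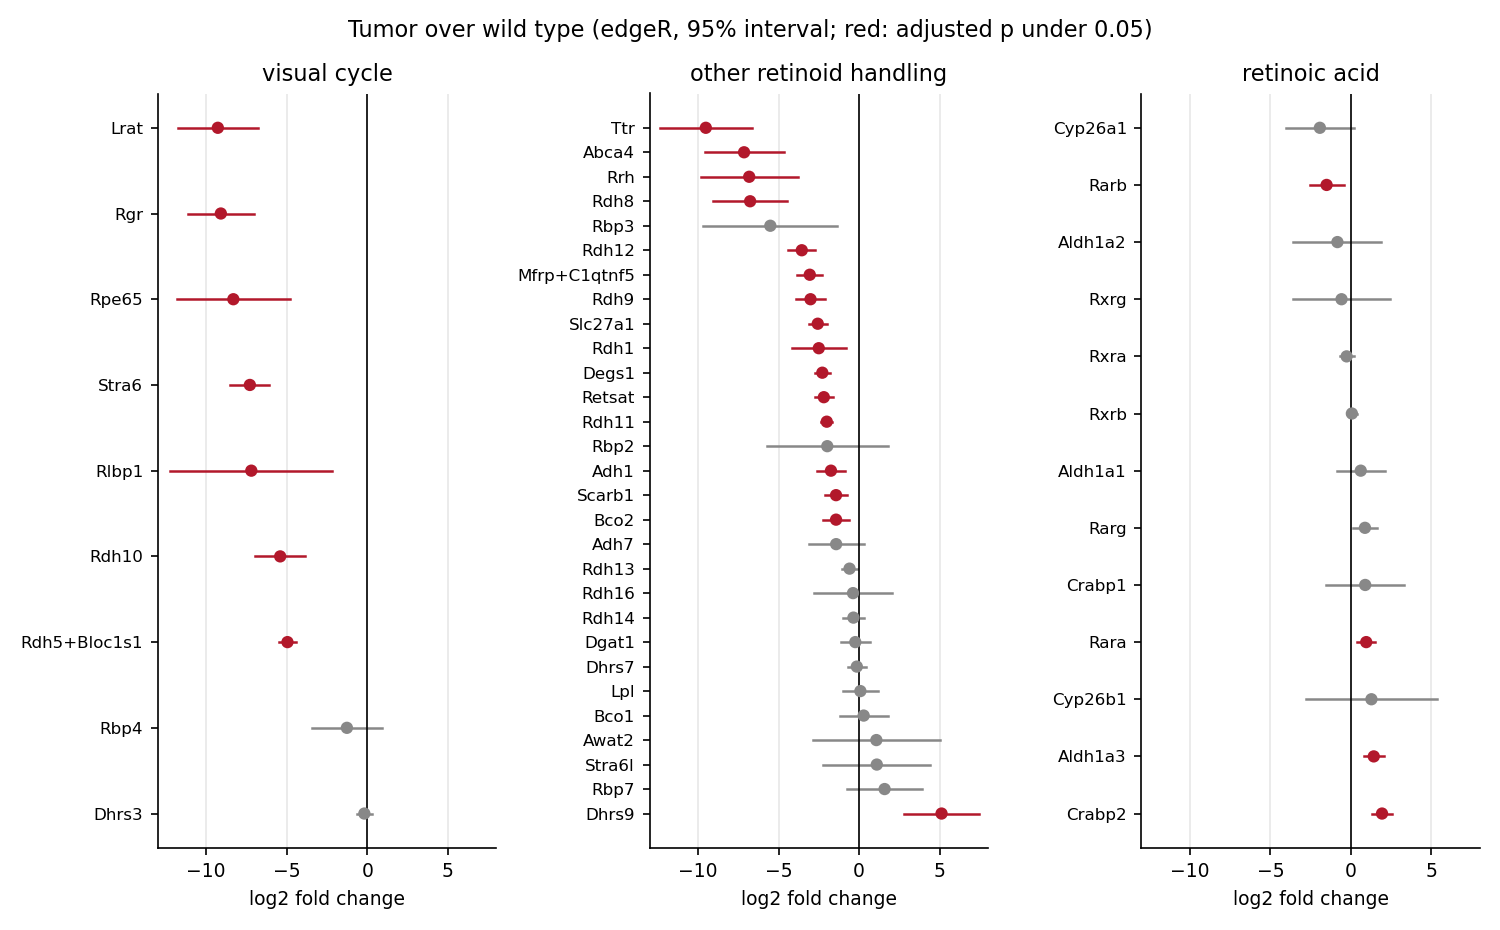
Log2 fold change of tumor over wild type with its 95% interval (edgeR) for the tested visual cycle loci, other retinoid handling genes and retinoic acid genes, apart from 1 gene of the second list that is not plotted. Red marks an adjusted p under 0.05. The intervals of 7 visual cycle loci lie wholly below −2, that of Dhrs3 spans 0 closely, and the retinoic acid genes lie on both sides of 0.

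Transcription factor genes of the eye's pigmented epithelia were read beside the members. Of 10 such genes 4 fell and 0 rose. Otx2 encodes a homeobox factor known to switch on RPE genes, and its letters were found before the RefSeq starts of Rpe65 and Rgr. It stood at 179 and 178 FPKM in the wild-type libraries. In the tumors it stood at 0.0193, 4.32 and 0.148 FPKM, from 1, 139 and 3 fragments. In FPKM, Otx2 was highest of the tumors in library 2, as were Rpe65, Lrat, Rlbp1, Rdh10 and Rgr but not the other members. With fragment counts scaled by library size alone, Stra6 and Dhrs3 were also highest there. These scaled counts were 4.72, 11.1 and 9.19 for Stra6 in tumor libraries 1, 2 and 3. For Dhrs3 they were 152, 190 and 169. The part of Otx2 in the member levels was not tested. Its log2 fold change of −6.63 (SE 1.85, edgeR adjusted p = 0.0478) stood close to the threshold, and the call ended without tumor library 1 or 3 (edgeR adjusted p = 0.0693 and 0.0672), with library size alone (edgeR adjusted p = 0.0546) and with no filter on low counts (edgeR adjusted p = 0.0513). It also ended with DESeq2 without wild-type library 1 or 2 (DESeq2 adjusted p = 0.107 and 0.108). Mitf, the pigment cell factor that acts with OTX2 in the RPE, fell by 2.42 (SE 0.19, edgeR adjusted p = 0.00442) and was even between tumors, at 3.83, 3.16 and 4.53 FPKM against 22.0 and 21.7 FPKM. Without tumor library 2, 9 of the 10 fell and 1 rose, with DESeq2 over all libraries 7 fell and 1 rose, and without tumor library 1 there was 1 fall.

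Loci with a pattern like that of 3 members were sought among 9922 loci, by the distance between log2 CPM values centred on their mean over the 5 libraries. Nearest to Rpe65 were Slc4a5, a bicarbonate cotransporter gene (distance 0.411), Cdhr1, a photoreceptor cadherin gene (0.714), the melanin enzyme gene Tyrp1 (0.775), Slc16a8 (0.857) and Tmem27 (0.872). Slc4a5 stood at 273 and 285 FPKM in the wild-type libraries, against 0.185, 2.76 and 0.213 FPKM in the tumors, the same order as Rpe65. Nearest to Rdh10 were Jakmip2 (0.396), Ankrd33 (0.479), the rod transducin gene Gngt1 (0.542), the melatonin synthesis gene Aanat (0.564) and Prdm16 (0.579). Ankrd33 and Aanat had 0 FPKM in tumor library 3, with log2 fold changes of −6.35 and −6.79 against −5.40 for Rdh10. At such low levels the prior count of the log2 CPM sets the distance in part. Nearest to Rbp4 were Fam195a (0.810), Cd300lg (0.858), Got1 (0.930), Matn4 (0.961) and Hist2h2ac (1.01). Among the members themselves, Rpe65 and Lrat were closest to each other (1.01), and Lrat and Rgr next (1.35). Such distances rest on 5 libraries in 2 groups, so most of each is set by the difference between the groups.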

How the data were processed

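RNA of 2 wild-type and 3 tumor libraries was sequenced. Frozen tissue gave total RNA (Trizol, TruSeq kit), per the labels' protocols. TopHat2 2.0.9, Cufflinks 2.2.1, Cuffdiff and build mm10 stand in the submitters' processing notes without their roles. Annotation, filters and strandedness are likewise not given in the sources, so overlapping and antisense reads cannot be told apart. The deposited table gives estimated counts of fragments per locus that were not scaled, and, per the file headers, FPKM, to which the authors applied a scaling of libraries. The authors' deposited scaled signal was used only to read those scaling factors (0.931 to 1.06).

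The table's condition names give the groups. Libraries are numbered in the table's order. Unnamed loci (1627 of 24768, 1.52% to 4.37% of fragments) were left out. Counts were rounded, filtered by filterByExpr (minimum count 10), scaled by TMM and tested with edgeR 4.0.16 (R 4.3.3) by the quasi-likelihood F-test, two-sided, with Benjamini-Hochberg adjustment over 15241 loci. The SE was taken as the log2 fold change over the root of F, and 95% intervals use the t distribution. Log2 CPM used a prior count of 2. Other settings used DESeq2 1.42.0 and limma 3.58.1 (limma-trend). The edgeR script was tested on simulated data. Locus positions are 1-based.

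The members and gene lists were chosen with earlier results of these data known. The text names the 9 members, any gene of the retinoid, retinoic acid and transcription factor lists, up to 3 genes per other list with the highest wild-type and up to 2 with the highest tumor FPKM, and the 5 nearest patterns for Rpe65, Rdh10 and Rbp4. Best1 falls outside that rule and was named after its values were seen. Among the genes of the retinoid list that are counted but not named, 1 is also left out of the plot of fold changes.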

Additional observations from a re-analysis of the deposited data

How the results depend on the processing

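Over 12 planned settings and 5 added after the results were seen (DESeq2 with each library left out), no member changed direction. The members that fell numbered 7 in all settings but these: 6 with library size alone and without tumor library 1 or 3 (Rlbp1 lost), and 0 in edgeR without either wild-type library. With each library left out in turn, members that fell ranged from 0 to 7 in edgeR and were 7 in every DESeq2 fit. In edgeR, loci that rose ranged from 0 to 3032 and loci that fell from 0 to 3112; both were 0 without wild-type library 1 or 2 (unadjusted p under 0.05 at 4085 and 3996 loci), where the remaining library is assumed to vary like the tumors and the adjusted p of the 7 members was 0.075 to 0.174. DESeq2 called 1666 rises and 1195 falls without wild-type library 1, and 1626 and 1205 without wild-type library 2, and up to 3363 and 3421 in its other left-out sets. Stra6 relative to the RPE markers turned from −0.48 to 0.28 without tumor library 2, and ranged from −1.16 to 0.28 with each library left out. On log2(FPKM + 1), Lrat was −7.14, Rlbp1 −8.50 and the Rdh5/Bloc1s1 locus −3.59 with limma. Calls of Dhrs3 and Rbp4 were absent in all 17 settings (adjusted p 0.282 to 0.802 and 0.128 to 0.806). Depth limits Rbp4, at 4 to 50 fragments, and the tumor levels of Lrat and Rpe65. No paired analysis was possible because the deposited table numbers its libraries from 0, the labels number theirs from 1, and no source links the numberings.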
